A study of Mus musculus with 60 samples.

Results

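The 7 genes described here mark tissues that surround the brain in the fetal head. Ibsp, Col1a1 and Col1a2 are bone genes, and Bpifb9b, Bpifa1, Cyp2g1 and Reg3g are genes of the nasal or airway mucosa. Each was found as 1 transcript cluster (a row of the array's value table, usually 1 per gene) among 19938 named genes, by its single gene symbol in the platform annotation. The genes were chosen on their log2 levels in these same arrays, having been seen high in a fetal brain sample, so their levels are given as a description. The study hybridised fetal brain RNA of mice to the Affymetrix Mouse Gene 1.0 ST platform after the dams had received chlorpyrifos oxon (CPO), the active metabolite of the insecticide chlorpyrifos, which inhibits acetylcholinesterase.

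Dosing ran over gestational days 6 to 17, and fetal brains were taken on day 18. The brains of 1 litter were pooled for each array, which makes the dam the replicate, and fewer cells of a type and less RNA per cell cannot be told apart in such a pool. Dams came from a random draw, made once those with outlying acetylcholinesterase activity in brain were set aside, per the series description. The 60 arrays form 12 groups of 5. Wild type (WT), tgHuPON1Q192 (Q-tg) and tgHuPON1R192 (R-tg) mice each received CPO at 0, 0.75 or 0.85 mg/kg/d. Q-tg and R-tg carry human PON1 transgenes, of the glutamine (Q) and the arginine (R) form of a common human variant. PON1-knockout mice (KO) received 0, 0.50 or 0.75 mg/kg/d. All 60 samples are labelled with the strain background B6.129. PON1 is the paraoxonase that hydrolyses CPO. Arrays are named below by genotype, dose and replicate number.

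The values are log2 signals, and a difference of 1 is a doubling of signal. Array medians ran from 7.66 to 7.81. Pon1 itself split the arrays into 15 at or below 5.67 and 45 at or above 9.72, and 10 arrays went against their label: 5 labelled KO were high and 5 of other labels were low. Every genotype below is therefore the labelled one. Olfactory receptor genes, 1035 transcript clusters, served as a guide to dim signal: 95% of them had a mean below 6.54. By their mean over the 60 arrays, Col1a1 and Col1a2 lay above this level and the other 5 genes lay below it.

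Bone is laid down by osteoblasts, which secrete a matrix of type I collagen and then mineralise it. Col1a1 and Col1a2 encode the chains of type I collagen, which fibroblasts of the meninges and vessel walls also make. Ibsp encodes bone sialoprotein, a mineral-binding matrix protein largely restricted to mineralising tissue. Osteoclasts resorb that matrix with the protease cathepsin K (Ctsk) and tartrate-resistant acid phosphatase (Acp5). The nasal cavity is lined by respiratory and olfactory epithelium. Bpifa1 (also called SPLUNC1 or Plunc) and Bpifb9b belong to the BPI fold family of secreted lipid-binding proteins of mucosal surfaces. Cyp2g1 is a cytochrome P450 of the olfactory mucosa. Reg3g is a secreted C-type lectin with bactericidal activity, best known from the gut and airway epithelium.

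Bpifb9b and Bpifa1 lie in 1 cluster of family genes on chromosome 2, and Ibsp, Col1a1, Col1a2, Cyp2g1 and Reg3g are on chromosomes 5, 11, 6, 7 and 6. The promoters of Bpifb9b and Ibsp, the mucosa and the bone gene farthest above their usual level, are shown with those of Bpifa1 and of Bpifb9a, the chromosome 2 neighbour of Bpifb9b, to show how far genes high on the same array resemble each other in sequence. Each window runs from 250 bases before to 50 bases after the annotated start, 5′ to 3′ on the gene's own strand, and all of these lie on the plus strand. They come from RefSeq on GRCm38.p6. Capitals mark each TATA box, spelled TATAAA, on either strand. They also mark each CCAAT box, searched as those letters, and a match on the opposite strand is printed as its reverse complement.
Bpifb9b, chr2:154306994-154307293: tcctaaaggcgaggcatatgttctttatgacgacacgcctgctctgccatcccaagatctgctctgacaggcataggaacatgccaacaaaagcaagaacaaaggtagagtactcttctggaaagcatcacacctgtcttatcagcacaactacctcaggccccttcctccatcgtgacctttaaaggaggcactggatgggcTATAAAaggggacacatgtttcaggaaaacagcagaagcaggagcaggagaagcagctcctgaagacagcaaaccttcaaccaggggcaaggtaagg
Bpifb9a, chr2:154257629-154257928: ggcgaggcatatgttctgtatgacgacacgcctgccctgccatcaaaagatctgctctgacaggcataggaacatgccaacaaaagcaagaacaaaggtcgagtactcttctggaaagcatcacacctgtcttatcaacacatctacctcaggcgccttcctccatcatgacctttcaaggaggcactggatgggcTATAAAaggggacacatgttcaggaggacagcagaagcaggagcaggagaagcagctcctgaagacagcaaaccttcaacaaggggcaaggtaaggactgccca
Bpifa1, chr2:154142630-154142929: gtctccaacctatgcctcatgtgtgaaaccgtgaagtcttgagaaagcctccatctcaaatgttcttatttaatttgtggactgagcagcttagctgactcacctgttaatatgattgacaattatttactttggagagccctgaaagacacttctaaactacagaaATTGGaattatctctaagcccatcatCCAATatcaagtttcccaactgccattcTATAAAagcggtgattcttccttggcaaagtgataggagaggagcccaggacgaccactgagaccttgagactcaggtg
Ibsp, chr5:104299037-104299336: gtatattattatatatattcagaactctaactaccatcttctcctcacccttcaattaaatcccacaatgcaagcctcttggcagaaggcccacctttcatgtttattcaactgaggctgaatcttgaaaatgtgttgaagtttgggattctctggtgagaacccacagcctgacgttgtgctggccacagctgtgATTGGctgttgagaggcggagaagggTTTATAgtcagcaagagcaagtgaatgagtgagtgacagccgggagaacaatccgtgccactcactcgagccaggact
The Bpifb9b and Bpifb9a windows aligned over 292 bases with 279 identical, which is 95.5%. Both hold a TATA box, 47 bases before the start in Bpifb9b and 54 in Bpifb9a. Bpifa1 has a TATA box 29 bases before its start, a CCAAT box at 57 and an opposite-strand CCAAT box at 83. Ibsp has its TATA and CCAAT matches on the opposite strand, 28 and 54 bases before the start. The TATA box letters occur on either strand in 13.6% of 32851 promoter windows, and those of the CCAAT box in 37.4%. The 2 motifs do not overlap in these windows. These matches describe the letters alone. With promoters this alike, how far the array's probes separate Bpifb9b from Bpifb9a was not tested.

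A single array held the highest level of all 7 genes: WT 0.75 replicate 2, the litter of 1 wild-type dam given 0.75 mg/kg/d. An array was said to stand out for a gene when it lay at least 1 log2 unit above the median of the 60 arrays. WT 0.75 replicate 2 stood out for all 3 bone genes and all 4 mucosa genes, and no other array stood out for any. Over all 21789 transcript clusters with a single gene symbol, 43, or 0.197%, reached that height in at least 1 array. WT 0.75 replicate 2 was the highest array for 274 of the 21789, or 1.26%. Since the genes were chosen for this array, these shares are background for their values and nothing is read from them.

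**Figure D1:**
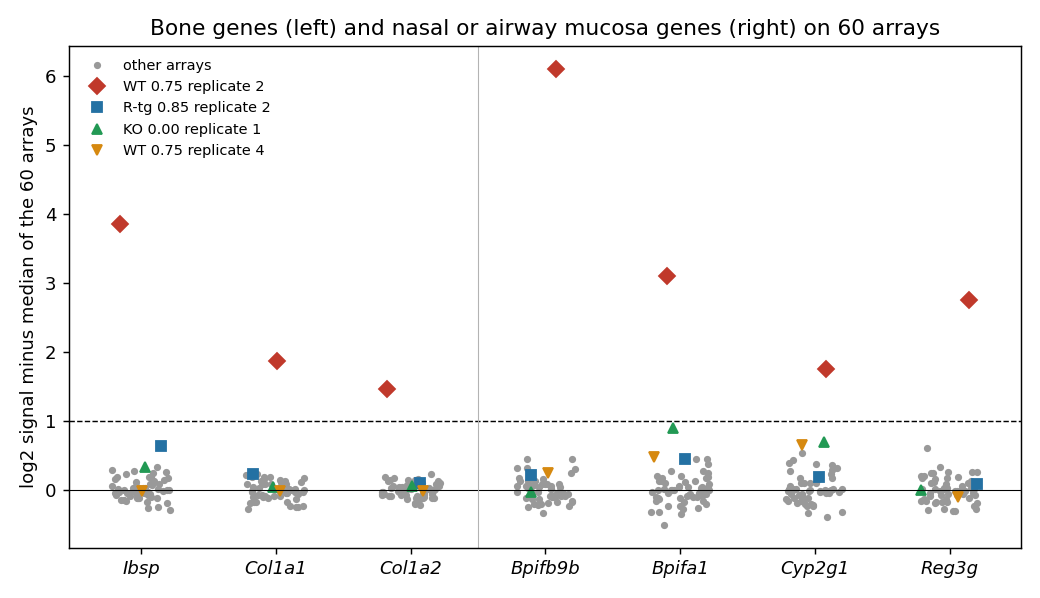
Each point is 1 array, plotted as its log2 signal minus the median of the 60 arrays for that gene, with small horizontal jitter; the dashed line marks 1 log2 unit. The red diamonds of WT 0.75 replicate 2 run from 1.46 (Col1a2) to 6.10 (Bpifb9b), and every other array lies below the line.

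Among the bone genes, Ibsp was farthest from its usual level. Its log2 level was 9.69 in WT 0.75 replicate 2, against a median of 5.84 and a range of 5.55 to 6.48 over the other 59 arrays. This is a difference of 3.86 from the median, or 14.5-fold. The gap to the next array was 3.22, wider than the whole range of the other arrays. Col1a1 was at 10.66 in that array, with a median of 8.79 and the other arrays between 8.52 and 9.03. It stood 1.87 above the median, or 3.65-fold. Col1a2 was at 10.21, with a median of 8.74 and the other arrays between 8.52 and 8.98, a difference of 1.46 or 2.76-fold. The collagens started from signals well above the dim level, and Ibsp started below it.

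Among the mucosa genes, Bpifb9b had the greatest difference of all transcript clusters on this array. It was at 10.32, with a median of 4.21 and the other 59 arrays between 3.88 and 4.67. It stood 6.10 above the median, or 68.7-fold. Bpifa1 was at 9.00, with a median of 5.89 and the other arrays between 5.39 and 6.79, a difference of 3.10 or 8.60-fold. Reg3g was at 7.64, with a median of 4.88 and the other arrays between 4.57 and 5.49, a difference of 2.76 or 6.77-fold. Cyp2g1 was at 7.71, with a median of 5.94 and the other arrays between 5.55 and 6.64, a difference of 1.76 or 3.39-fold. For each of the 4 genes the array lay outside the range of all others, by the least for Cyp2g1, where the gap to the next array was 1.06.

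Within the group of 5 dams, none of the other 4 arrays stood out for any gene. Not all of them lay near the middle of the series. In WT 0.75 replicates 1, 2, 3, 4 and 5 Ibsp was at 6.02, 9.69, 5.65, 5.82 and 5.87. Bpifb9b was at 4.34, 10.32, 3.88, 4.47 and 4.19 in the same order. The 5 controls of WT 0.00 held Ibsp between 5.60 and 5.92 and Bpifb9b between 4.04 and 4.29. The range of the 4 remaining treated arrays overlapped that of the controls for both genes. For Ibsp, replicate 1 lay above every control. For Bpifb9b, replicates 1 and 4 lay above every control and replicate 3 below every control. Replicate 3 was the lowest of the 60 arrays for Bpifb9b and for Cyp2g1 (5.55), while replicate 4 ranked 3 for Cyp2g1 (6.60) and for Bpifa1 (6.38). The lower quartile of an array's values was also lowest in replicate 3, at 6.19, and was 6.24 in replicate 4 (rank 56).

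**Figure D2:**
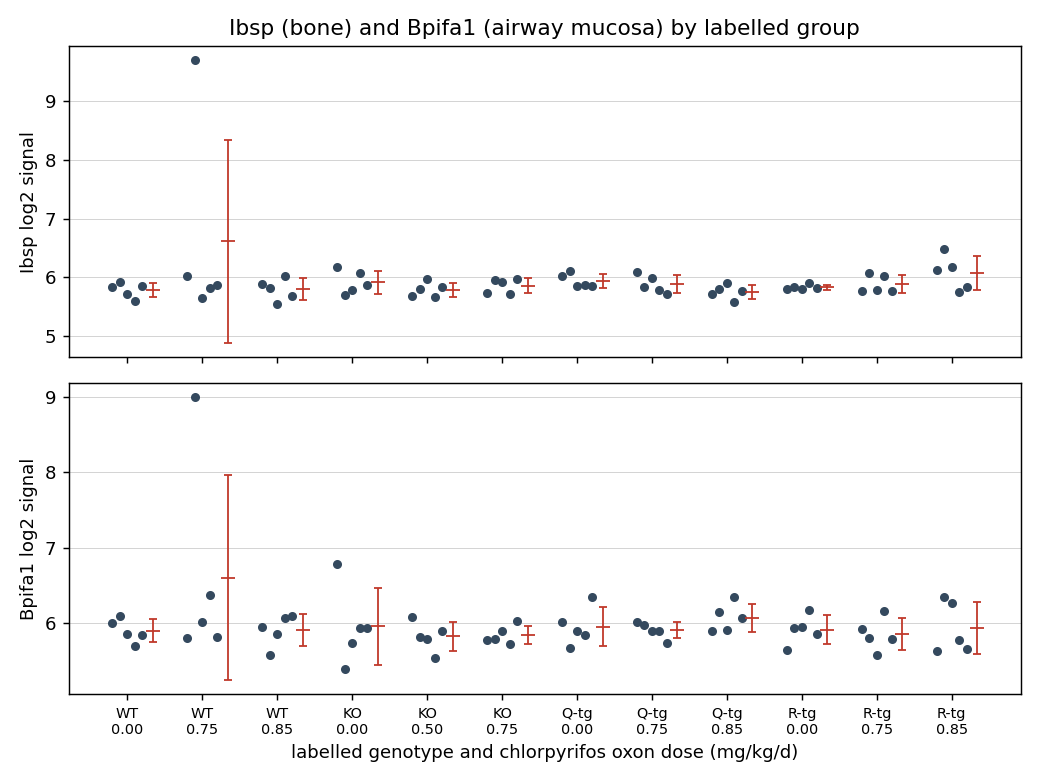
Log2 signal of Ibsp (top) and Bpifa1 (bottom) by labelled genotype and dose in mg/kg/d; blue points are the 5 arrays of a group in replicate order and the red bar is mean ± SD. One point of WT 0.75 lies at 9.69 for Ibsp and 9.00 for Bpifa1, and the largest group mean and SD belong to that group.

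The rest of that array's signal was close to that of the other arrays. Its median difference over all 21789 transcript clusters was 0.007, and 24 of them, or 0.11%, stood at least 1 above their median, the most of any array; the next array had 6 and the median array 1. Of the 24, 7 were the genes described here and 17 were not. At a height of 0.5 the count was 69, or 0.317%, and 5 arrays had more, up to 154 in WT 0.85 replicate 4.

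The other genes at the top of this array again included mucosa genes, and the osteoclast genes Ctsk, Acp5 and Atp6v0d2 ranked 13, 16 and 17. The 10 named transcript clusters farthest above the median were Bpifb9b, Ibsp, Bpifb9a, Bpifa1, Reg3g, Olfm5, Aspn, Col1a1, Cyp2g1 and Bpifb5. Bpifb9a stood 3.35 above its median, Olfm5 (an olfactomedin) 2.75, Aspn (asporin, an extracellular matrix proteoglycan) 2.03 and Bpifb5 1.76. For each of these 4 the other 59 arrays all lay lower.

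The genes of the chromosome 2 BPI fold cluster did not move as a block. All 13 genes of the cluster were measured, in the order Bpifb2, Bpifb6, Bpifb3, Bpifb4, Bpifa6, Bpifa2, Bpifa3, Bpifa1, Bpifa5, Bpifb1, Bpifb5, Bpifb9a and Bpifb9b. Bpifa1, Bpifb5, Bpifb9a and Bpifb9b, 4 of the 13, stood at least 1 above the median in WT 0.75 replicate 2. The other 9 lay between -0.18 (Bpifa3) and 0.19 (Bpifb4) of theirs. Bpifa5 and Bpifb1, which lie between Bpifa1 and Bpifb5, were at 0.004 and -0.11.

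Tissue marker lists, which leave out the 7 genes, are described on this array by counts and medians beside the 0.007 over all transcript clusters. The lists were chosen with earlier results of these data known. They hold some of this array's top genes, so their values are given as a description. Of 30 measured genes of the bone list, 26 lay above their median, where 54.5% of all transcript clusters did, and 7 by at least 0.5. The list's median was 0.27, the highest of the 60 arrays, where the others ran from -0.12 to 0.17. The largest were Mmp13 (collagenase 3) at 1.70, Phex (an endopeptidase of osteoblasts and osteocytes that controls phosphate) at 1.08, Sgms2 (a sphingomyelin synthase) at 0.90 and Panx3 (a pannexin channel) at 0.73. Serpinf1 was also at 0.73. Postn (periostin) was at 0.63, Alpl (alkaline phosphatase) at 0.50, Sp7 (osterix, the osteoblast transcription factor) at 0.32 and Dmp1, an osteocyte gene, at 0.13.

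The osteoclast list was split. Ctsk stood 1.64 above its median, Acp5 1.46, Atp6v0d2 (a proton pump subunit) 1.35 and Mmp9 (a gelatinase) 0.89, each the highest of the 60 arrays. The other 6 of 10 measured genes, among them the receptor genes Calcr, Oscar and Tnfrsf11a, lay between -0.20 and 0.13. The list's median was 0.09. None of 21 cartilage genes reached 0.5, and their median was -0.001.

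In the mucosa lists a few genes stood far above the rest. In the nasal and airway secretory list 7 of 55 measured genes reached 0.5 and 5 reached 1, while the list's median was -0.02. Besides Bpifb9a and Bpifb5, these were Cbr2 (a carbonyl reductase of airway epithelium) at 1.71, Wfdc18 (a secreted protein with a WAP domain) at 1.59, Cyp2f2 (a club cell cytochrome P450) at 1.26, Scgb1c1 (a secretoglobin of nasal glands) at 0.94 and Epcam, an epithelial adhesion molecule, at 0.52. The club cell secretoglobin Scgb1a1 was at 0.09, the mucin genes Muc5ac and Muc5b at -0.26 and 0.21, and Reg3b and Reg3a, relatives of Reg3g, at -0.21 and -0.19. In the olfactory support list 4 of 23 reached 0.5: Cbr2, which is in both lists, Sult1d1 at 0.85, Sult1c1 at 0.71 and Aox2 at 0.61. The list's median was 0.06, rank 6 of the 60 arrays. In the olfactory neuron list 1 of 21 did, Stoml3 at 0.79, and Omp, which marks mature olfactory neurons, was at 0.12; 16 of 21 lay above 0, and the median of 0.05 ranked 5. In the multiciliated list 1 of 21 did, Sntn at 0.66, and 15 of 21 lay above 0. The list's median of 0.09 was the highest of the 60 arrays, where the others reached 0.08. Of all transcript clusters 54.5% lay above 0 on this array.

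None of 32 skeletal muscle genes reached 0.5 and 2 lay above 0, with a median of -0.08. Each list gene was read at its transcript cluster of highest mean. A dimmer transcript cluster of Trdn, a gene of the muscle list, was at 4.77 on this array, 0.91 above its median. R-tg 0.85 replicate 5 was higher for it, at 5.25. None of 8 tooth, 21 keratinocyte, 14 salivary or lacrimal gland, 22 lens and retina, 12 erythroid or 20 neuron genes reached 0.5. The meninges and fibroblast list lay higher: Lum (lumican) at 1.10 and Mgp (matrix Gla protein) at 0.52 reached 0.5, 24 of 27 genes lay above 0, and the list median of 0.11 ranked 2 of the 60 arrays. Of 12 pituitary genes only Gh reached 0.5, at 1.13, and the list median was -0.18. Gh was at 8.11 there, where the highest array reached 10.73, and WT 0.75 replicate 2 ranked 23 of 60.

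**Figure D3:**
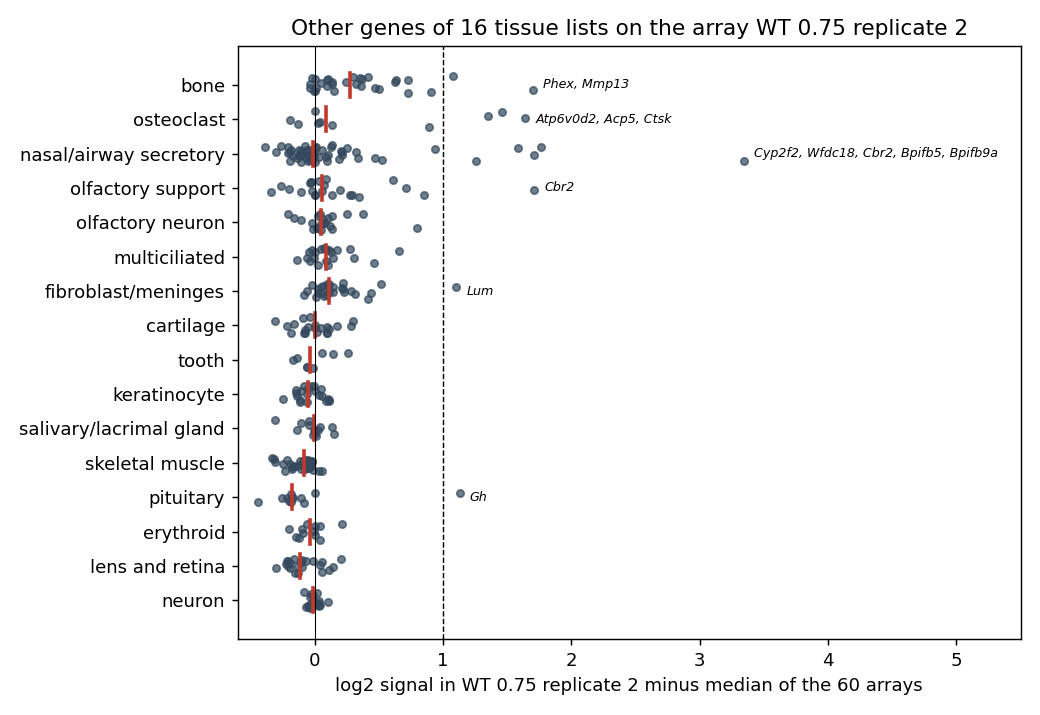
Each point is 1 measured gene of a tissue list on WT 0.75 replicate 2, plotted as log2 signal minus the median of the 60 arrays; red bars are list medians, the dashed line marks 1, and genes at or beyond it are named. The bone median is 0.27, while the nasal or airway secretory list has a median of -0.02 and 5 genes beyond 1.

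Below the height of 1, the same genes were less far above their medians in a few other arrays. At a height of 0.5, 2 arrays stood out for a bone gene and 5 for a mucosa gene, counting WT 0.75 replicate 2 in each. Over all transcript clusters the number at that height ran from 4 (R-tg 0.75 replicate 5) to 154 (WT 0.85 replicate 4) per array. The share of all that reached it in at least 1 array was not counted, so nothing is read from the 2 and the 5. The array labelled KO 0.00 replicate 1, whose Pon1 level of 10.04 goes against its label, was the next highest for Bpifa1 at 6.79 (0.89 above the median) and for Cyp2g1 at 6.64 (0.70 above). Cbr2 lay 0.56 above its median there, but the nasal and airway list as a whole did not: 26 of 55 genes were above 0 (53.4% of all transcript clusters were), with a median of -0.002. Ibsp was 0.34 above its median there and ranked 4 of 60, while Bpifb9b, at 4.19, ranked 34 and Reg3g, at 4.88, ranked 31. It had 24 transcript clusters at or above 0.5, or 0.11%.

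WT 0.75 replicate 4, a different dam of the group of WT 0.75 replicate 2, followed for the same pair of genes. Bpifa1 was 0.48 and Cyp2g1 0.66 above the median there, and Cbr2 0.59. It had 29 transcript clusters at or above 0.5. The nasal and airway list was low on that array, with 8 of 55 genes above 0, where 42.4% of all transcript clusters were, and a median of -0.14 (rank 54 of 60). R-tg 0.00 replicate 4 had Cyp2g1 0.54 above and Cbr2 0.56. That array had 128 transcript clusters at or above 0.5 and ranked 2 by the lower quartile of its values. Its nasal and airway list median of 0.20 ranked 2, but those of skeletal muscle (0.20) and pituitary (0.29) ranked 1. The array labelled KO 0.00 replicate 5 had Reg3g 0.61 above, and 47 transcript clusters at or above 0.5. Ibsp and the collagens were not 0.5 above in any of these 4 arrays.

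Of the 3 bone genes only Ibsp reached 0.5 outside WT 0.75 replicate 2, in 1 other array. R-tg 0.85 replicate 2 was next highest for Ibsp at 6.48 (0.64 above the median) and for Col1a1 at 9.03 (0.24 above). Col1a2 was 0.11 above there and ranked 12 of 60. Of the bone list 24 of 30 genes lay above 0 there, with a median of 0.09 (rank 4 of 60), and none reached 0.5. Other list medians were about as high: 0.08 for skeletal muscle (rank 9), 0.12 for tooth (rank 9) and 0.09 for erythroid genes (rank 10). Of these lists 28 of 32, 8 of 8 and 11 of 12 genes lay above 0, where 53.4% of all transcript clusters did. Bpifa1 was 0.45 above its median there. Gh lay 2.32 above its median on that array, and its part in the result was not tested. It had 8 transcript clusters at or above 0.5, or 0.0367%. Q-tg 0.85 replicate 4 was next highest for Col1a2 at 8.98, 0.24 above, and for Cbr2 at 7.05. Col1a1 ranked 3 of 60 there, Bpifa1 6 (0.45 above), Cyp2g1 8 (0.37) and Reg3g 6 (0.26). Ibsp ranked 59 and Bpifb9b 43. The lower quartile of that array's values ranked 3, and 95 of its transcript clusters lay at or above 0.5.

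R-tg 0.85 replicate 3, a different dam from R-tg 0.85 replicate 2, was moderately high for bone and mucosa genes alike, without reaching 0.5 for any. Ibsp was 0.34 above its median (rank 3 of 60), Bpifa1 0.37 (rank 7), Cyp2g1 0.31 (rank 9), Reg3g 0.26 (rank 5), Col1a1 0.19 (rank 6) and Bpifb9b 0.18 (rank 10), while Col1a2 ranked 21. The lower quartile of this array ranked 5 of 60.

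Whether lesser traces varied together was described over the 59 arrays that stood out for no gene, with Pearson's r and Spearman's rho over 21 pairs. The points share the normalisation and, within a group, the treatment. Col1a1 and Col1a2 followed each other closely, with r = 0.80 and rho = 0.79. Ibsp did not follow them: rho was 0.17 with Col1a1 and -0.07 with Col1a2. Without the 2 arrays farthest from the Ibsp median, of which R-tg 0.85 replicate 2 is the farther, the first of these was 0.08.

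**Figure D4:**
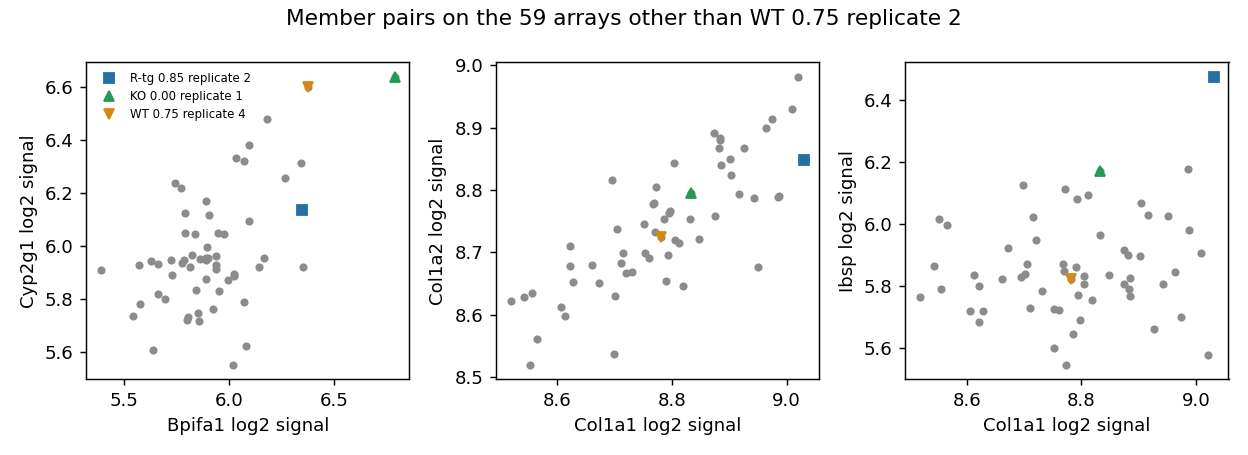
Log2 signal of gene pairs, 1 point per array for the 59 arrays other than WT 0.75 replicate 2: Bpifa1 and Cyp2g1 (left), Col1a1 and Col1a2 (middle), Col1a1 and Ibsp (right). The collagens form a diagonal band (rho = 0.79), Ibsp does not follow Col1a1 (rho = 0.17), and KO 0.00 replicate 1 and WT 0.75 replicate 4 lie at the upper right of the left panel.

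All 6 pairs of mucosa genes had rho above 0, from 0.21 (Bpifb9b with Reg3g) to 0.49 (Bpifa1 with Reg3g), with a median of 0.33. Bpifa1 and Cyp2g1 had the highest r, 0.55, with rho = 0.38. In the 54 arrays under 0.5 for every gene these were 0.32 and 0.26. The 12 pairs of a bone and a mucosa gene had rho from -0.01 to 0.38, with a median of 0.17.

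The brightness of dim transcript clusters moved with the same genes. The lower quartile of an array's values ran from 6.19 to 6.52, and its rho over the 59 arrays was 0.64 with Reg3g, 0.54 with Bpifa1, 0.35 with Bpifb9b and 0.26 with Cyp2g1. It was 0.27 with Ibsp, 0.26 with Col1a1 and 0.14 with Col1a2. After a linear fit on the lower quartile, an alternative added after seeing the data, the mucosa pairs had rho from -0.01 to 0.18 with a median of 0.09. The 12 pairs of a bone and a mucosa gene then had rho from -0.06 to 0.29, with a median of 0.12, no lower than that of the mucosa pairs. Bpifa1 and Cyp2g1 kept r = 0.49, with rho = 0.16. Col1a1 and Col1a2 stayed at rho = 0.79.

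**Figure D5:**
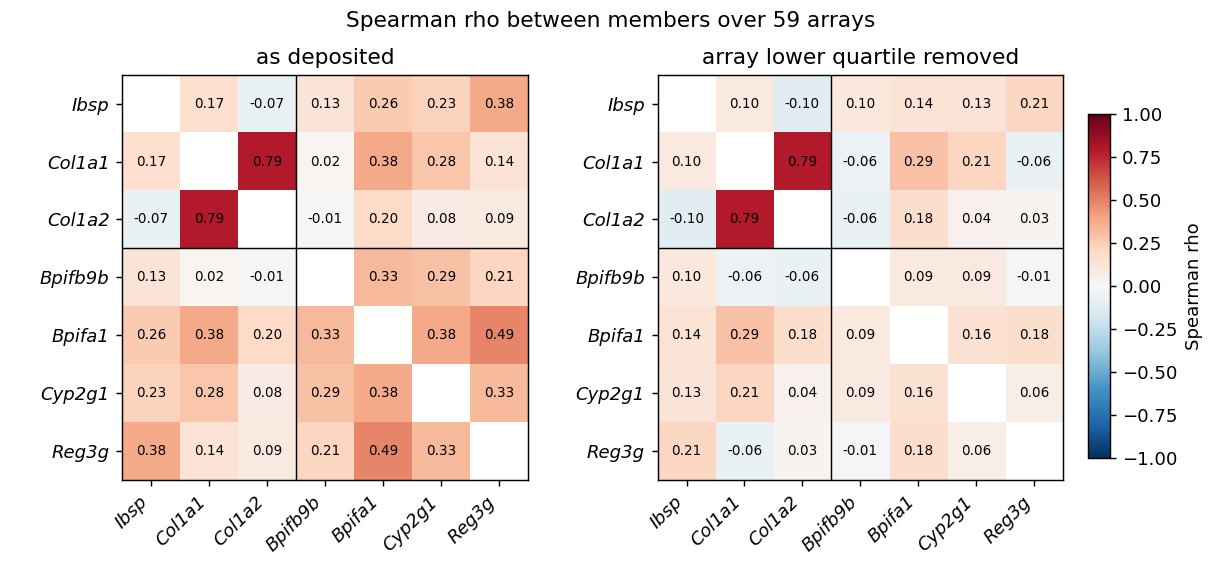
Spearman's rho for each of the 21 gene pairs over 59 arrays, as deposited (left) and after the array's lower quartile was removed by a linear fit (right); colour and number give rho, and black lines separate bone from mucosa genes. The mucosa block falls from a median of 0.33 to 0.09, and the collagen pair is 0.79 in each panel.

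The genes most like each one over these 59 arrays were as follows. Col1a1 was most like Hspg2 (perlecan, a basement membrane proteoglycan, rho = 0.85), Svep1 (0.77), Lamb2 (a laminin chain, 0.74), Col6a3 (0.71) and Vwf (von Willebrand factor of endothelium, 0.71). Col1a2 was most like Lrp1 (0.82), Sdk2 (0.77), Msi2 (0.77), Lrp4 (0.76) and Gpc6 (0.76). Of 30 bone list genes 27 had rho above 0 with Col1a1, with a median of 0.24, where the median over all transcript clusters was 0.05 and 57.6% were above 0. Lists of other tissues were about as high, with a median of 0.28 for 12 erythroid genes and 0.22 for 22 lens and retina genes. In the meninges and fibroblast list the median was 0.23 with Col1a1 and 0.37 with Col1a2, against 0.08 over all for the latter.

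Bpifa1 was most like Adam3 (0.66), Stoml3 (of olfactory neuron cilia, 0.65), Sall4 (0.63), Arid3c (0.63) and Rhbdf2 (0.62). Cyp2g1 was most like Asic5 (0.53), H2-Q5 (0.51), Aox2 (an aldehyde oxidase, 0.50), Stoml3 (0.49) and Lbx1 (0.49). Of 55 nasal and airway genes 54 had rho above 0 with Bpifa1, with a median of 0.40, but lists of other tissues were nearly as high: 0.39 for 12 erythroid, 0.38 for 12 pituitary, 0.34 for 22 lens and retina and 0.33 for 21 keratinocyte genes, where all transcript clusters had 0.02. Reg3g was most like Mab21l4 (0.73), Olfr464 (0.71), Sprr1b (0.71), Itih4 (0.70) and Ildr1 (0.70). Ibsp was most like Olfr10 (0.60), Sfn (0.58), Jsrp1 (0.55), Rhox9 (0.53) and Ncf4 (0.53), and Bpifb9b was most like Olfr474 (0.60), Olfr1449 (0.56), Rdh8 (0.53), Tinagl1 (0.52) and Ltc4s (0.52). The 30 bone list genes had a median rho of 0.11 with Ibsp, where 32 skeletal muscle genes had 0.27 and all transcript clusters -0.06.

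Over all 60 arrays the likeness was set by WT 0.75 replicate 2. There r between a bone and a mucosa gene ran from 0.66 to 0.94. Ibsp was most like Bpifb9a (r = 0.92) and Olfm5 (0.89), and Col1a2 was most like Sparc (osteonectin, 0.88) and Ctsk (0.87).

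Across the labelled groups, WT 0.75 had the highest mean of all 7 genes and the widest spread. Bpifb9b was 5.44 ± 2.74 there (mean ± SD, n = 5), and without replicate 2 its mean was 4.22; the other 11 groups had means from 4.15 to 4.31. Ibsp was 6.61 ± 1.73, with a mean of 5.84 without replicate 2, and next came R-tg 0.85 at 6.07 ± 0.29. Bpifa1 was 6.60 ± 1.36, or 6.00 without that array. Group medians, which 1 array moves little, differed by 0.16 (Col1a2) to 0.35 (Ibsp) between the highest and the lowest group, and the ranges of neighbouring groups overlapped.

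The comparison of 0.75 mg/kg/d CPO with dose 0 in WT asks which genes respond to the agent in wild-type mice. limma fitted 1 model of the 12 groups to the 60 arrays, with Benjamini-Hochberg adjustment over 21789 transcript clusters, and called none of them (0%) in any of 11 comparisons of dose or genotype. The counts at an unadjusted p under 0.05 ran from 362 to 2216. None of the 77 tests of the 7 genes passed, and the 6 with an unadjusted p under 0.05 all came from this comparison. The genes were chosen on an array of this comparison, so that choice set where these 6 fall, and nothing is read from it. With limma's array weights 39 transcript clusters passed in it, none of the 7 genes among them. With no weights, none of the 30 bone and 55 nasal or airway list genes passed, since no transcript cluster did. Whether list genes were among the 39 was not examined.

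In this comparison Bpifb9b was 1.25 higher at 0.75 mg/kg/d (SE 0.49, limma adjusted p = 0.457). Without WT 0.75 replicate 2 the difference was 0.03 (SE 0.12, limma adjusted p = 0.948). Ibsp differed by 0.83 (SE 0.32), and by 0.06 (SE 0.10) without that array. Bpifa1 differed by 0.70 (SE 0.28) and Reg3g by 0.60 (SE 0.24), and without the array by 0.11 and 0.04. Col1a1 differed by 0.40 (SE 0.17) and Col1a2 by 0.33 (SE 0.13), and without it by 0.02 and 0.03. Cyp2g1 differed by 0.30 (SE 0.20) and by -0.05 without the array. The bone list mean moved with this array too: it was 7.61 there, 7.17 to 7.24 in the other 4 treated arrays and 7.22 to 7.32 in the controls. The airway list mean was 6.22 there, with 5.84 to 6.02 and 5.97 to 6.11 in the others, and an array of WT 0.85 also reached 6.22.

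That array also set the error of the other comparisons, since all groups share 1 estimate of the spread. With it in the model, SEs of the 0.75 comparison in WT were 4.16 times as large for Bpifb9b, 3.03 for Ibsp, 2.04 for Reg3g, 1.92 for Col1a1, 1.91 for Col1a2, 1.71 for Bpifa1 and 1.28 for Cyp2g1. In the other 10 comparisons the 7 genes differed by -0.22 (Cyp2g1, CPO 0.50 against 0 in KO) to 0.24 (Ibsp, CPO 0.85 against 0 in R-tg). For that Ibsp difference the SE was 0.32 with the array and 0.10 without it. No difference of the 7 genes in these comparisons passed, with or without it.

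Col1a2 lies near Pon1 on chromosome 6, with 5 protein-coding genes between them, so its level was set against Pon1. It ran from 8.60 to 8.90 in the 15 arrays with low Pon1 and, without WT 0.75 replicate 2, from 8.52 to 8.98 in the others. The sets overlapped almost wholly. Peg10, an imprinted gene of the same stretch, was at 10.61 to 10.90 and 10.20 to 10.60, with nearest values of 10.607 and 10.596. How many of all transcript clusters separate in this way was not counted, so these are values only.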

How the data were processed

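Fetal brain RNA of 60 dams in 12 labelled groups of 5 was measured on 1-colour arrays. The deposited log2 values came from RMA (package oligo, R 2.15.1), per the submitters' processing notes, and were not normalised further. The genome build is not given in the sources used here. Of 28858 transcript clusters, 21789 had exactly 1 gene symbol in the platform annotation, 1621 several and 5448 none. limma 3.58.1 in R 4.3.3 fitted the 12 groups in 1 model, 2-sided, with Benjamini-Hochberg adjustment over 21789 and a threshold of 0.05, and was tested on simulated data. The number of arrays limits the precision.

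The 7 genes, the 16 tissue lists and the tests were chosen with earlier results of these data known. The rule for named genes covers the 7, the 5 transcript clusters most like each, the 10 highest on an array that stands out, the 4 largest of a list and Pon1; other genes were named after their values were seen. Alternatives were a filter on dim rows, median centring, array weights, the replicate number as a block, leaving out arrays whose Pon1 level goes against the label, each array left out, other heights (0.5, or 5 scaled median absolute deviations), other array sets and, added later, leaving WT 0.75 replicate 2 out of every comparison and removing the lower quartile. Replicate numbers did not pair the arrays: in 17 of 55 same-numbered pairs the deviations from the group means correlated over 0.1, and in 0 of 11 comparisons every pair did. Correlations are given without a p-value.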

Additional observations from a re-analysis of the deposited data

Results flagged for a closer look

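In groups of 5, an array was singled out where its gap to the nearest other array exceeded 0.71 of the group's range. Of 84 gene and group combinations 11 did so. WT 0.75 replicate 2, the array on whose levels the genes were chosen, accounted for 6, which are given as values only: Bpifb9b at 10.32 (next 4.47), Ibsp at 9.69 (next 6.02), Bpifa1 at 9.00 (next 6.38), Reg3g at 7.64 (next 4.92), Col1a1 at 10.66 (next 8.79) and Col1a2 at 10.21 (next 8.78). Cyp2g1 was not singled out there, since WT 0.75 replicate 4 was also high. The other 5 of 84 are about the 1 in 20 that chance gives. Cyp2g1 was at 6.64 in the array labelled KO 0.00 replicate 1, where the next was at 5.96. Reg3g was at 5.22 in Q-tg 0.00 replicate 4, where the next was at 4.94. Col1a1 at 8.99 and Col1a2 at 8.79 were high together in the array labelled KO 0.75 replicate 5, where the next were at 8.76 and 8.69. Ibsp was at 5.91 in R-tg 0.00 replicate 4, in a group where the next was at 5.83. No pair of groups had all arrays of a gene moving in opposite directions.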

How the results depend on the processing

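None of the 1254 tests of the 7 genes, over all comparisons and alternatives, passed the threshold. For CPO 0.75 against 0 in WT the count of transcript clusters called by limma was 0; it was 1 with dim rows left out, 39 with array weights and from 0 to 1 with 1 array left out, 1 of them without WT 0.75 replicate 1 and without replicate 5. For CPO 0.85 against 0 in R-tg it was 1 with array weights. For KO against WT at dose 0 it was 29 without the arrays whose Pon1 level goes against the label, and for R-tg against WT at dose 0 it was 1 without WT 0.00 replicate 1 and from 0 to 1 over the arrays left out. The cause was not tested. With the replicate number as a block the count stayed 0 in all 11 comparisons, and no call changed. The Cyp2g1 difference in WT ran from -0.050 to 0.49 and was -0.050 without WT 0.75 replicate 2. At a height of 0.5 instead of 1, 2 arrays stood out for bone genes and 5 for mucosa genes; with 5 scaled median absolute deviations, with centring and against the other arrays of the group it was 1 array for each. Of the 21 rho values, 10 moved by over 0.1 once the lower quartile was removed, and 1, that of Bpifa1 and Cyp2g1, did so in the arrays under 0.5. Most of the mucosa genes lay below the dim level outside WT 0.75 replicate 2, which limits what their small differences can show.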

Other observations

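Of 27 meninges and fibroblast genes, 24 lay above their median on WT 0.75 replicate 2, where 54.5% of all transcript clusters did. All 27 are above the dim level in these brains by their median. Of the 7 bone list genes that were at least 0.5 above on that array, 3 were above the dim level by their median, and of the 7 nasal and airway genes 1 was. WT 0.75 replicate 2 was the highest of the 60 arrays for 13 of 30 bone, 9 of 27 meninges and fibroblast, 9 of 55 nasal and airway, 5 of 23 olfactory support, 4 of 10 osteoclast and 4 of 21 multiciliated genes, and for none of 32 skeletal muscle, 21 keratinocyte or 20 neuron genes. Over all transcript clusters it was the highest for 1.26%.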
